A study of Mus musculus with 31 samples.

Results

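The miR-200 family was followed in whole lungs of female mice of the inbred strain BALB/c that breathed cigarette smoke for 4, 6, 8 or 12 weeks, set against mice kept in room air over the same periods. Its members here are the 7 mature miRNAs mmu-miR-429-3p, mmu-miR-200b-3p, mmu-miR-200c-3p, mmu-miR-200a-3p, mmu-miR-141-3p, mmu-miR-200b-5p and mmu-miR-141-5p, chosen by name and by no measured value, and written below without the mouse prefix. They are 7 of the 650 miRNAs on the 1-colour Agilent arrays and are carried by 18 of the 1857 probes. There were 15 smoke arrays and 16 control arrays, with 4 arrays in each group except the 12 weeks smoke group, which had 3. The sources used here give neither mouse age nor cigarette dose nor the way smoke was delivered, and do not say that each array is a separate animal. The p-values therefore speak only of the scatter among these samples, part or all of which could be technical.

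The miR-200 miRNAs are made from a pair of short gene clusters that are active in epithelial cells and nearly silent in mesenchymal cells. They repress the mRNAs of ZEB1 and ZEB2, transcription factors that in turn repress both clusters and E-cadherin, and this mutual repression is a textbook switch between epithelial and mesenchymal states. In the lung they are known from airway and alveolar epithelium. Because whole lung was measured, fewer epithelial cells and less miRNA per epithelial cell cannot be told apart in any value below.

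The mature sequences are shown because the members fall into groups by seed, the stretch from base 2 to base 8 that pairs with target mRNAs, and because the levels of 4 of the 3p members, described later, varied by seed and not by cluster. The remaining 3p member, miR-429-3p, followed the members with its seed less closely. All sequences are from RefSeq on GRCm38.p6, where all 7 members were matched, are written 5′ to 3′, and have the seed in capitals. The first 3 share a seed, the next 2 share another seed that differs at position 4 of the miRNA, counted from 1 at the 5′ end, and the last 2 are the opposite strands of their hairpins.
miR-429-3p: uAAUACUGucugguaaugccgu
miR-200b-3p: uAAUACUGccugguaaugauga
miR-200c-3p: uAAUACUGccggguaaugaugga
miR-200a-3p: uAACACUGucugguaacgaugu
miR-141-3p: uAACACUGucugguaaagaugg
miR-200b-5p: cAUCUUACugggcagcauugga
miR-141-5p: cAUCUUCCagugcaguguugga

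Between the 3p strands, miR-200a-3p and miR-200b-3p differ over their 22 bases by C4U, U9C, C17U and U22A, of which only C4U lies in the seed. miR-200b-3p and miR-200c-3p differ over the same length by U11G and A22G, and miR-200a-3p and miR-141-3p by C17A and U22G, so the closest relatives in sequence come from different chromosomes. Chromosome 4 holds miR-429-3p at chr4:156053916-156053937, miR-200a-3p at chr4:156054911-156054932, miR-200b-3p at chr4:156055685-156055706 and miR-200b-5p at chr4:156055721-156055742, all on the minus strand of GRCm38.p6. This cluster of 3 hairpins spans 1846 bases, lies between the protein-coding genes Ttll10 and 9430015G10Rik and overlaps no annotated protein-coding gene. Genes of other types were not searched. Chromosome 6 holds miR-141-3p at chr6:124717917-124717938, miR-141-5p at chr6:124717959-124717980 and miR-200c-3p at chr6:124718324-124718346, also on the minus strand. The 2 hairpins there span 477 bases between the protein-coding genes Phb2 and Ptpn6 and overlap no annotated protein-coding gene.

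The hairpins Mir200b and Mir141 each give a pair of members, one from either arm, and are shown because the arms of Mir141 did not vary alike while those of Mir200b did. Capitals mark the mature arms.
Mir200b: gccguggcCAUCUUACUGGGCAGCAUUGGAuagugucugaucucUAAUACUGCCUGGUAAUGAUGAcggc
Mir141: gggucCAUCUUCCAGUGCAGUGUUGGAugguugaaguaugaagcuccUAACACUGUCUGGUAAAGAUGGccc

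The arrays lay on 4 slides, and each slide held both exposures at every duration except that slide 4 had no 12 weeks smoke array. Smoke samples always lay in position row 1 of a slide and control samples in row 2, and the column was the duration, so effects of array position and of smoke cannot be told apart. Each miRNA was taken from its brightest probe as log2 scaled signal, the log2 of its intensity over the 75th percentile of its array, with a floor at -6.74. In this text "passed" means an adjusted p of 0.05 or less in limma, adjusted by Benjamini and Hochberg over the 272 miRNAs that were detected often enough to be tested. All 7 members were tested, and all 7 were detected above background on all 31 arrays, as were 207 miRNAs in all. Smoke arrays 2 and 3 of 4 weeks had the highest scores on the leading component of the other miRNAs, 8.76 and 4.69, where the others ran from -5.26 to 3.78. Smoke array 3 lay under 1 unit above the next array, but the 4 weeks results are given with and without both.

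Averaged over the 4 durations, miR-429-3p and miR-141-5p were each 1.20-fold higher in smoke-exposed lungs, and the other 5 members did not pass. Of all 272 tested miRNAs 15.4% passed as higher in that comparison and 27.6% in either direction. At 4 weeks 5 of 7 members passed as higher, where 26.8% of all tested miRNAs did. At 6 and 12 weeks only miR-429-3p and miR-141-5p did, where 7.72% and 5.15% of all did. At 8 weeks no member did, where 3.68% of all did. The 4 weeks count was 3 of 7 with the slide as a block, where 86 of all 272 miRNAs passed in either direction, 70.9% of them as higher. It was 1 of 7 without smoke arrays 2 and 3, where 15 of all did. No member passed as lower in any of these comparisons. At 4 weeks, however, miR-141-3p did in 3 of the other settings, the deposited series table of the authors among them, and miR-200a-3p did in 1. The plot of smoke minus control shows these differences for every member and duration.

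**Figure D1:**
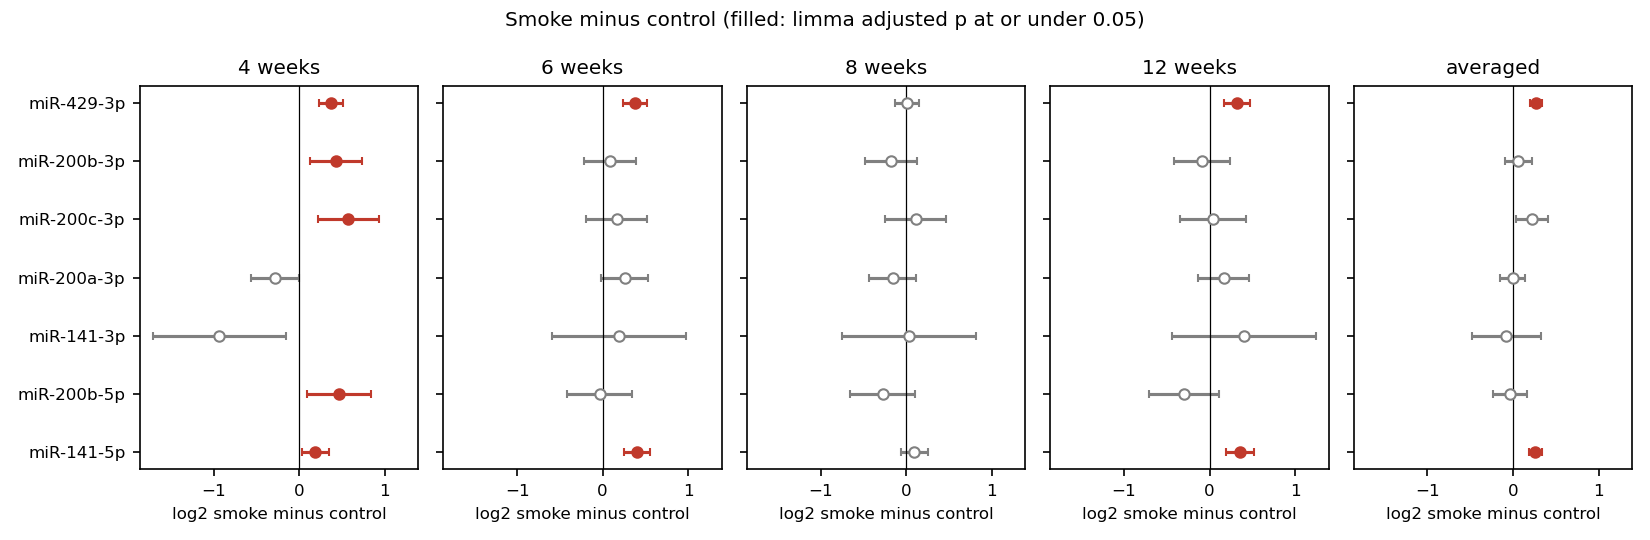
Smoke minus control on the log2 scale (x axis) for each member (y axis) at 4, 6, 8 and 12 weeks and averaged over the durations, with 95% confidence intervals from limma; filled red points passed at an adjusted p of 0.05. miR-429-3p lies at 0.37, 0.37, 0.01 and 0.32 in the order of the durations, and miR-141-3p has the widest intervals.

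miR-429-3p, from the chromosome 4 cluster, had the lowest adjusted p of the family in the averaged comparison. At 4 weeks its log2 scaled signal was -0.71, -0.40, -0.61 and -0.69 in smoke-exposed lungs, against -0.93, -0.91, -0.98 and -1.08 in control lungs. At 6 weeks it was -0.63, -0.43, -0.62 and -0.58 in smoke-exposed lungs, against -0.86, -0.85, -0.99 and -1.04 in control lungs. All 4 smoke arrays lay above all 4 control arrays at both times. At 8 weeks it was -0.74, -0.82, -0.97 and -0.66 in smoke-exposed lungs, against -0.81, -0.75, -0.81 and -0.86 in control lungs, and the groups overlapped. At 12 weeks it was -0.49, -0.56 and -0.55 in smoke-exposed lungs, against -0.93, -0.83, -0.83 and -0.82 in control lungs, again without overlap. Over all durations 13 of 15 smoke arrays were above the highest of the 16 control arrays, and the 2 that were not were smoke arrays 2 and 3 of 8 weeks.

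The log2 difference of miR-429-3p was 0.37 ± 0.07 at 4 weeks (SE of the model, with 4 arrays in either group, limma adjusted p 0.000387) and 0.37 ± 0.07 at 6 weeks (limma adjusted p 0.000479). It was 0.32 ± 0.07 at 12 weeks (limma adjusted p 0.00461, with 3 arrays of smoke-exposed lungs and 4 of control lungs). At 8 weeks it was 0.01 ± 0.07, with a 95% interval of -0.13 to 0.15 (limma adjusted p 0.993). Averaged over the durations the difference was 0.27 ± 0.04, a 1.20-fold higher level (limma adjusted p 1.48e-06). That averaged difference was above 0 in 16 of 16 other settings and passed in 14, the exceptions being no scaling between arrays (0.12, limma adjusted p 0.62) and normexp background correction (0.20, limma adjusted p 0.108). At 12 weeks it passed in 12 of 17, and in the deposited series table of the authors it was 0.20 there (limma adjusted p 0.0723). The second probe of this miRNA, also detected on all 31 arrays, gave 0.27 ± 0.03 in the averaged comparison. Within slides, smoke was above the control of the same slide and duration in 13 of 15 pairs, and the mean difference per slide ran between 0.21 on slide 3 and 0.35 on slide 4.

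**Figure D2:**
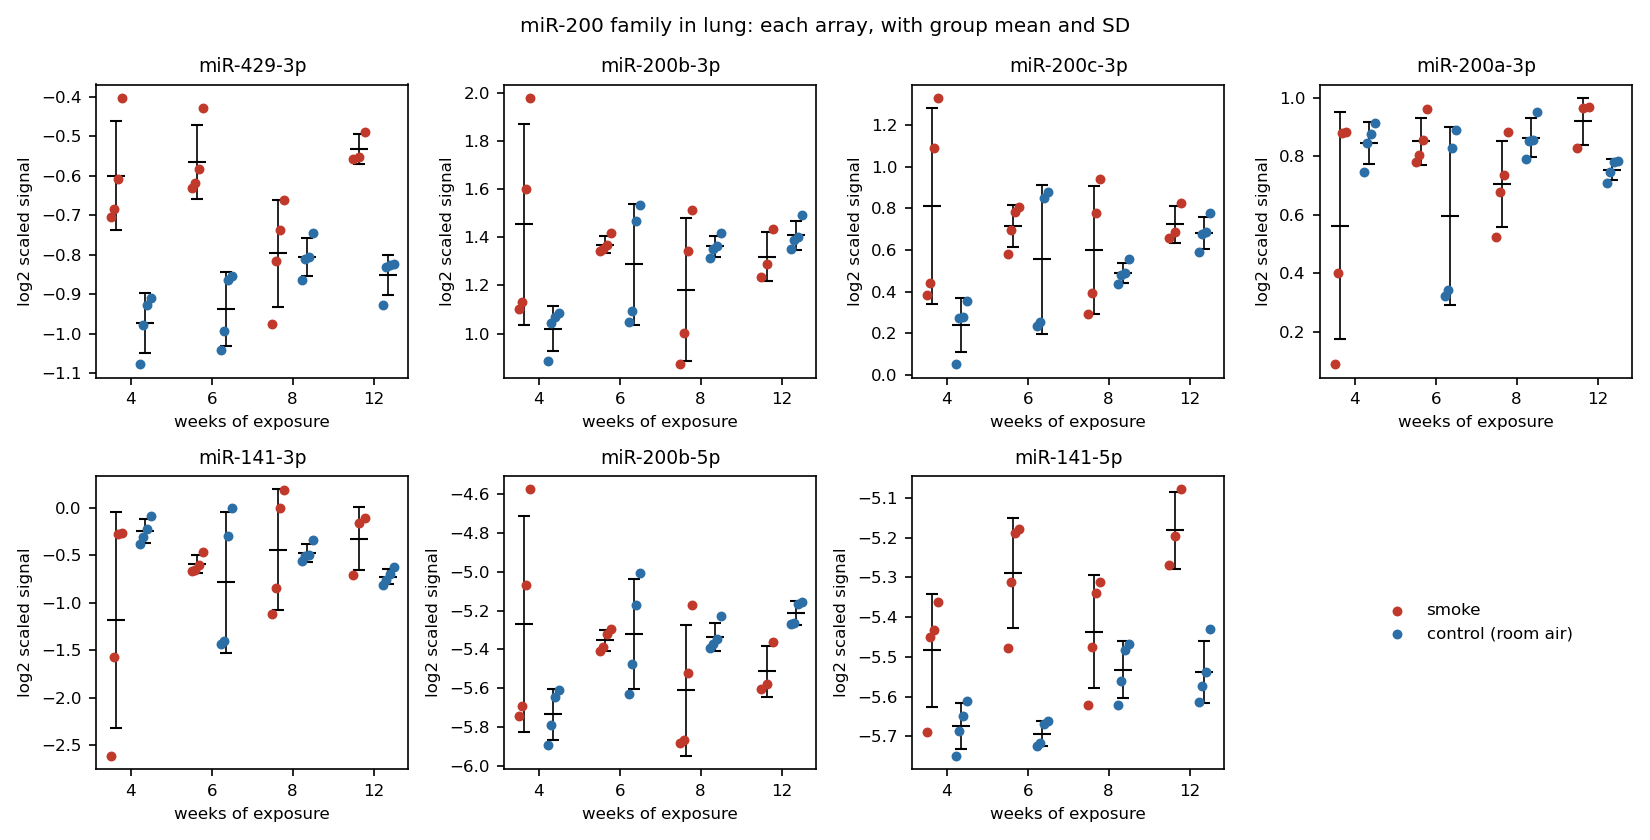
Log2 scaled signal (y axis, a separate range for each member) on every array at 4, 6, 8 and 12 weeks (x axis), with smoke in red to the left of control in blue; bars give the group mean and SD, with 4 arrays per group and 3 for 12 weeks smoke. miR-429-3p smoke arrays lie above the control arrays at 4, 6 and 12 weeks, and the 4 weeks smoke arrays of miR-200b-3p, miR-200c-3p, miR-200a-3p, miR-141-3p and miR-200b-5p are spread widely.

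The other members with the same seed changed at fewer times. At 4 weeks miR-200c-3p, from chromosome 6, was 0.44, 1.33, 1.09 and 0.38 in smoke-exposed lungs, against 0.28, 0.27, 0.35 and 0.05 in control lungs. miR-200b-3p, from chromosome 4, was then 1.13, 1.98, 1.60 and 1.10 in smoke-exposed lungs, against 1.04, 1.07, 1.09 and 0.89 in control lungs. Neither pair of groups overlapped, but in both smoke arrays 2 and 3 were high and arrays 1 and 4 lay just above the control range.

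The 4 weeks difference was 0.57 ± 0.17 for miR-200c-3p (limma adjusted p 0.0184) and 0.43 ± 0.15 for miR-200b-3p (limma adjusted p 0.0267). Without smoke arrays 2 and 3 it was 0.17 for miR-200c-3p (limma adjusted p 0.627) and 0.095 for miR-200b-3p (limma adjusted p 0.828), and either call was also lost when smoke array 2, smoke array 3 or control array 4 of 4 weeks was left out alone. At 6, 8 and 12 weeks the groups of both overlapped and their differences lay between -0.18 and 0.16. Averaged over the durations the difference was 0.22 ± 0.09 for miR-200c-3p (limma adjusted p 0.0645) and 0.06 ± 0.08 for miR-200b-3p (limma adjusted p 0.57). miR-200c-3p was higher with smoke in 11 of 15 slide pairs and miR-200b-3p in 7 of 15.

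The members with the other seed had differences below 0 at 4 weeks that did not pass. miR-141-3p, from chromosome 6, was then -0.27, -2.61, -1.57 and -0.28 in smoke-exposed lungs, against -0.08, -0.38, -0.31 and -0.23 in control lungs. miR-200a-3p, from chromosome 4, was 0.88, 0.09, 0.40 and 0.88 in smoke-exposed lungs, against 0.88, 0.85, 0.92 and 0.75 in control lungs. The low values were those of smoke arrays 2 and 3, the same arrays that were high in miR-200b-3p and miR-200c-3p, and the groups overlapped. The difference was -0.93 ± 0.38 for miR-141-3p (limma adjusted p 0.0513) and -0.28 ± 0.13 for miR-200a-3p (limma adjusted p 0.091). In the deposited series table of the authors the difference of miR-141-3p was -1.07 and passed (limma adjusted p 0.0462). This was 1 of 3 other settings in which it passed, and it also passed when any of 6 arrays was left out alone. For miR-200a-3p a call was gained in 1 setting and when either of 2 arrays was left out alone. Without smoke arrays 2 and 3 the difference was -0.024 for miR-141-3p and 0.035 for miR-200a-3p.

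At the later times miR-141-3p differed by 0.19 ± 0.38 at 6 weeks, 0.03 ± 0.38 at 8 weeks and 0.40 ± 0.41 at 12 weeks. Its wide error went with spread inside later groups as well: its 6 weeks control arrays were -0.30, 0.00, -1.40 and -1.44, and its 8 weeks smoke arrays were -1.12, 0.19, 0.00 and -0.84. For miR-200a-3p the groups did not overlap at 12 weeks, with 0.97, 0.96 and 0.83 in smoke-exposed lungs against 0.71, 0.75, 0.78 and 0.79 in control lungs. That difference of 0.16 ± 0.15 did not pass (limma adjusted p 0.489). Averaged over the durations the difference was -0.01 ± 0.07 for miR-200a-3p and -0.08 ± 0.19 for miR-141-3p.

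The 5p members, the opposite strands of 2 of the hairpins, had dim probes, with a median intensity over the arrays of 41.3 for miR-200b-5p and 40.2 for miR-141-5p before scaling. At 4 weeks miR-141-5p was -5.43, -5.69, -5.45 and -5.36 in smoke-exposed lungs, against -5.61, -5.69, -5.65 and -5.75 in control lungs, and the groups overlapped through smoke array 2. At 6 weeks it was -5.31, -5.48, -5.18 and -5.19 in smoke-exposed lungs, against -5.66, -5.72, -5.67 and -5.72 in control lungs. At 12 weeks it was -5.20, -5.08 and -5.27 in smoke-exposed lungs, against -5.61, -5.57, -5.43 and -5.54 in control lungs. The groups did not overlap at 6 and 12 weeks. At 8 weeks it was -5.34, -5.48, -5.62 and -5.31 in smoke-exposed lungs, against -5.48, -5.47, -5.56 and -5.62 in control lungs, with overlap.

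The difference of miR-141-5p was 0.40 ± 0.08 at 6 weeks (limma adjusted p 0.000512), 0.36 ± 0.08 at 12 weeks (limma adjusted p 0.00451) and 0.10 ± 0.08 at 8 weeks (limma adjusted p 0.503). At 4 weeks it was 0.19 ± 0.08 (limma adjusted p 0.0488), a call that was lost in each of the other processing settings tried, as it was when most single arrays were left out. The averaged difference was 0.26 ± 0.04, a 1.20-fold higher level (limma adjusted p 8.55e-06), with smoke higher in 12 of 15 slide pairs. A second probe, detected on 30 arrays, gave 0.22 ± 0.05, and the remaining 2 probes were detected on 0 arrays. With normexp background correction the averaged difference was -0.09 (limma adjusted p 0.848), and in the deposited series table of the authors it was 0.11 (limma adjusted p 0.173).

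miR-200b-5p was -5.69, -4.57, -5.07 and -5.74 in smoke-exposed lungs at 4 weeks, against -5.79, -5.64, -5.61 and -5.89 in control lungs. Here too smoke arrays 2 and 3 were high and the others lay within the control range. The 4 weeks difference was 0.47 ± 0.18 (limma adjusted p 0.0488). The call was lost when any of 21 of the 31 arrays was left out alone, smoke arrays 2 and 3 among them. It was kept in only 4 of the other settings, and not with the slide as a block (limma adjusted p 0.0584). Without both smoke arrays 2 and 3 the difference was 0.016. At 12 weeks the groups did not overlap in the other direction, with -5.58, -5.60 and -5.36 in smoke-exposed lungs against -5.26, -5.27, -5.16 and -5.16 in control lungs, and that difference of -0.30 ± 0.20 did not pass (limma adjusted p 0.347). The averaged difference was -0.04 ± 0.09.

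Read against all tested miRNAs, the family's count was above the background at some times and not at others. At 4 weeks 5 of 7 members passed as higher, where 26.8% of the 272 miRNAs did and 11.4% passed as lower, 38.2% in either direction. The median difference was 0.37 over the members and 0.17 over all miRNAs. That count rests on few arrays. It was 1 of 7 without smoke arrays 2 and 3, where 15 of all 272 miRNAs passed in either direction in place of 104. It was also 1 of 7 without the 3 arrays highest in muscle miRNAs, where 18 did. With any single array left out the count of members that passed in either direction ran from 1 to 6. At 6 weeks 2 of 7 passed as higher, where 7.72% of all did, 0.368% passed as lower and 8.09% in either direction, with medians of 0.19 over the members and 0.01 over all. At 8 weeks 0 of 7 passed in limma, where 3.68% of all passed as higher, 7.35% as lower and 11% in either direction, and 0 of 7 members had an unadjusted p under 0.05. At 12 weeks 2 of 7 passed as higher, where 5.15% of all did, 4.41% passed as lower and 9.56% in either direction, with medians of 0.16 over the members and -0.08 over all. In the averaged comparison 2 of 7 passed as higher, where 15.4% of all did and 27.6% passed in either direction, and the medians were 0.06 over the members and -0.01 over all.

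Groups that do not overlap were also common among all miRNAs. At 4 weeks 3 of 7 members had all smoke arrays above all control arrays, where 23.5% of all miRNAs did, and none lay wholly below, where 6.25% did. At 6 weeks the 2 members miR-429-3p and miR-141-5p did, where 15.8% of all did, and none lay wholly below, where 3.31% did. At 12 weeks 3 members did, where 16.5% of all did, and miR-200b-5p lay wholly below its controls, where 25.7% of all did. At 8 weeks no member's groups were separate, where 4.78% of all miRNAs had smoke above and 12.1% had smoke below. Over all durations together no member's 15 smoke arrays were all above its 16 control arrays, as was so for 1.47% of all miRNAs.

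**Figure D3:**
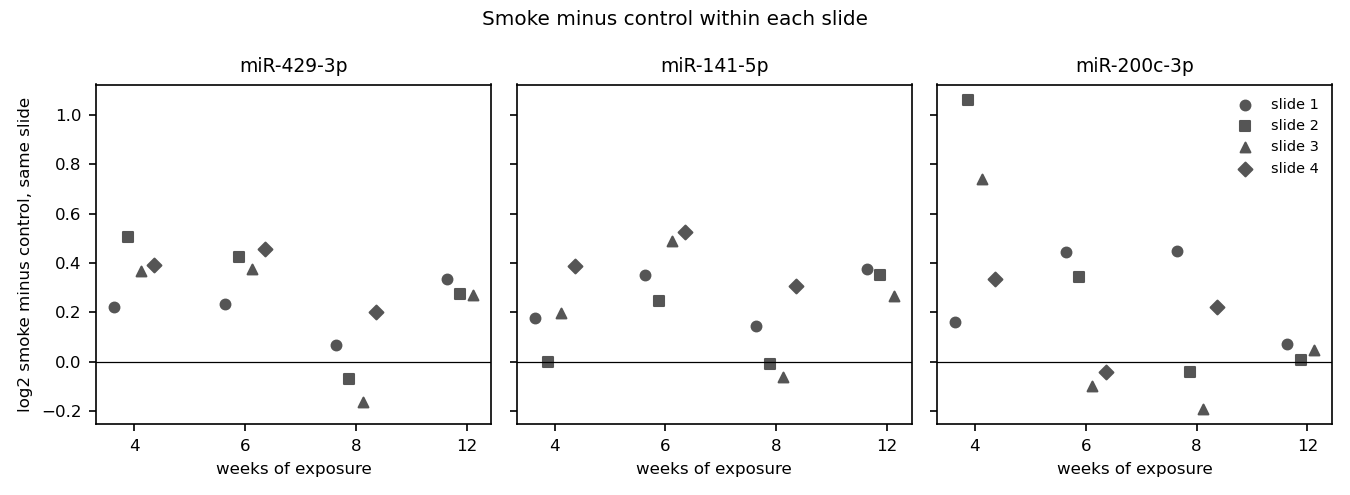
Smoke minus control within each slide on the log2 scale (y axis) at 4, 6, 8 and 12 weeks (x axis) for miR-429-3p, miR-141-5p and miR-200c-3p, with a marker shape per slide and no slide 4 pair at 12 weeks. miR-429-3p is above 0 in 13 of 15 pairs, and miR-200c-3p reaches 1.06 on slide 2 and 0.74 on slide 3 at 4 weeks.

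Whether the smoke effect depended on duration was tested with a moderated F test over the 4 durations. miR-429-3p passed (limma adjusted p 0.041), with its difference near 0 at 8 weeks and above 0.3 at the other times. It was the only 1 of 7 members to pass, where 6.99% of all miRNAs did, and the call was lost in most of the scaling, filter and background settings tried and when any of 15 of the 31 arrays was left out alone. The other members had adjusted p-values between 0.113 and 0.262 in limma. Among control lungs 0 of 7 members differed between durations in limma, where 6.99% of all miRNAs did, with 1 member, miR-200b-5p, under an unadjusted p of 0.05. Among smoke-exposed lungs 0 of 7 did in limma, where 2.94% of all did, with 2 members under an unadjusted p of 0.05, miR-141-5p (limma adjusted p 0.0678) and miR-429-3p (limma adjusted p 0.072).

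In order of group mean, the levels of miR-429-3p ran from the 4, 6, 12 and 8 weeks control groups through the 8 weeks smoke group to the 4, 6 and 12 weeks smoke groups. Only the step between the 8 and the 4 weeks smoke groups, from -0.80 ± 0.13 to -0.60 ± 0.14 (SD, 4 arrays each), was larger than the larger of the neighbours' SDs. The means of miR-141-5p had the same split, with the 6, 4, 12 and 8 weeks control groups lowest and the 4, 8, 6 and 12 weeks smoke groups above them. Its steps beyond the spread lay between the 4 and 12 weeks control groups and between the 8 and 6 weeks smoke groups. For the other 5 members smoke and control groups were interleaved. The 4 weeks smoke group was highest in miR-200b-3p and miR-200c-3p and lowest in miR-200a-3p and miR-141-3p.

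Across the 31 arrays 4 of the 3p members varied together by seed and not by cluster, while miR-429-3p followed the members with its seed less closely. The 2 pairs among the 4 that share a seed also differ at only 2 of 22 bases. Sharing a seed therefore cannot be told apart here from likeness of the whole sequence. miR-200b-3p and miR-200c-3p, which share a seed but not a chromosome, had a Pearson r of 0.923 and a Spearman rho of 0.885. miR-200a-3p and miR-141-3p, the pair with the other seed, also from different chromosomes, had an r of 0.905 and a rho of 0.748. For each of these the permutation p was 1e-05, the smallest that 100000 permutations can give, and the adjusted p over the 21 pairs of members was 3e-05 or 2.62e-05. Without the 2 arrays farthest from the median the r values were 0.906 and 0.823. After the group means were removed they were 0.971 and 0.952, so the pairing was present among replicates of the same group. Correlations this high were not particular to the family. Among 200 other miRNAs, miR-674-3p had an r of 0.952 to miR-200b-3p and miR-652-3p an r of 0.951 to miR-200c-3p. For miR-324-5p the r to miR-200a-3p was 0.905, and for miR-34b-5p the r to miR-141-3p was 0.95.

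Of the 3 pairs of 3p members that share a cluster but not a seed, 2 moved in opposite directions. miR-200c-3p and miR-141-3p, whose hairpins lie 1 after the other on chromosome 6, had an r of -0.845 and a rho of -0.84 (permutation p 1e-05 for both, adjusted 3e-05 and 2.62e-05), an r of -0.943 within groups and an r of -0.818 without the 2 farthest arrays. miR-200a-3p and miR-200b-3p on chromosome 4 had an r of -0.649 and a rho of -0.527 (permutation p 9e-05 and 0.00254, adjusted 0.000172 and 0.00485), and an r of -0.858 within groups. Without the 2 farthest arrays, smoke array 2 of 4 weeks and control array 3 of 6 weeks, that r was -0.426. The third pair, miR-200a-3p and miR-429-3p on chromosome 4, had an r of 0.0367 and a rho of 0.23 (permutation p 0.847 and 0.214, adjusted 0.847 and 0.28), and an r of 0.268 without the 2 farthest arrays. The arms of Mir200b, miR-200b-3p and miR-200b-5p, moved together with an r of 0.949 and a rho of 0.916 (permutation p 1e-05 for both, adjusted 3e-05 and 2.62e-05), and an r of 0.921 without the 2 farthest arrays. The arms of Mir141 had an r of 0.136 and a rho of -0.04 (permutation p 0.474 and 0.831, adjusted 0.523 and 0.833), and an r of 0.0192 without the 2 farthest arrays.

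**Figure D4:**
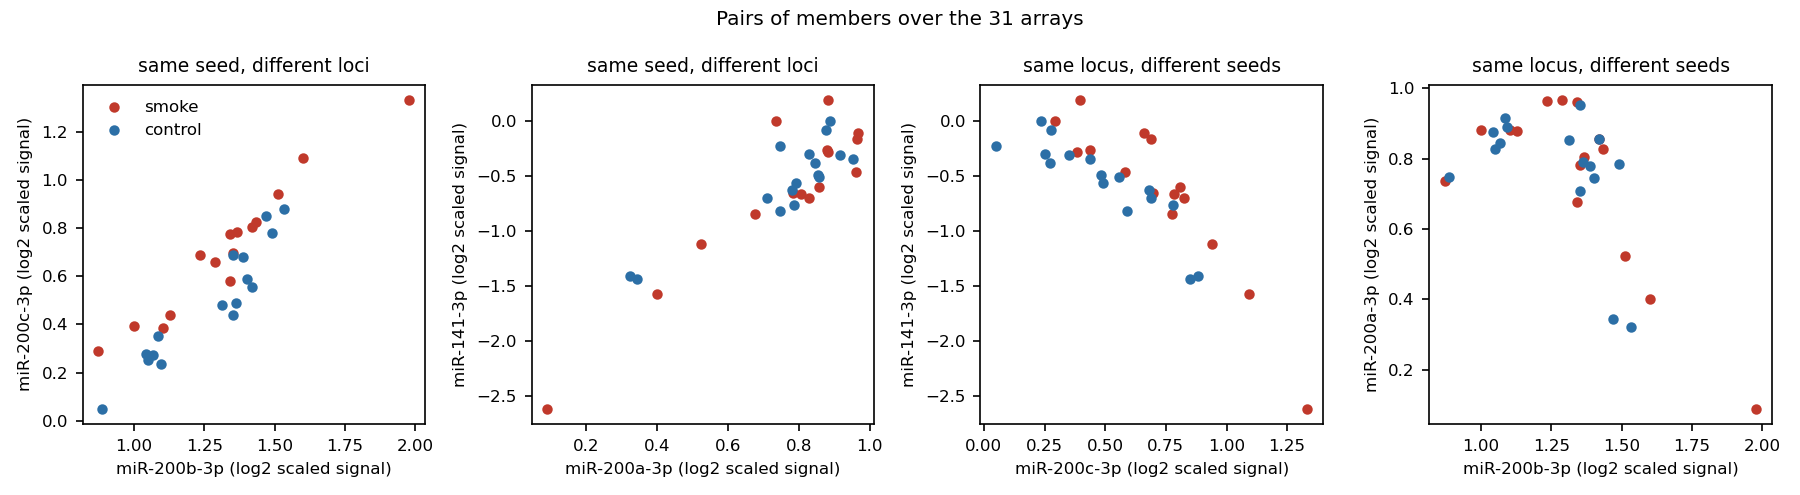
Log2 scaled signal of pairs of members on the 31 arrays (both axes), smoke in red and control in blue: 2 pairs that share a seed but come from different chromosomes, then 2 of the 3 pairs that share a cluster but not a seed. The first 2 panels rise together, with r of 0.923 and 0.905, and the last 2 run in opposite directions, with r of -0.845 and -0.649.

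miR-429-3p shares its seed with miR-200b-3p and miR-200c-3p and had lower correlations with them. To miR-200b-3p its r was 0.48 and its rho 0.319 (permutation p 0.00593 and 0.0808, adjusted 0.00958 and 0.121), and without smoke array 2 of 4 weeks and smoke array 3 of 8 weeks the r was 0.298, so the relation rests on those arrays. To miR-200c-3p its r was 0.54 and its rho 0.465 (permutation p 0.00173 and 0.00929, adjusted 0.00303 and 0.0163), with an r of 0.477 without the 2 farthest arrays and 0.317 within groups. To miR-141-5p its r was 0.689 and its rho 0.728 (permutation p 3e-05 and 1e-05, adjusted 6.3e-05 and 2.62e-05), with an r of 0.915 without the 2 farthest arrays. Within groups that last r was -0.03, so the relation did not hold among replicates of a group. No other member had an r of over 0.4 to miR-141-5p.

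The same split was seen against the other miRNAs. The leading component of the 200 other miRNAs detected on every array was scored for each array and it carried 46.4% of their variance. Its r over the 31 arrays was 0.943 for miR-200c-3p, 0.941 for miR-200b-3p, 0.894 for miR-200b-5p and 0.457 for miR-429-3p, against -0.941 for miR-141-3p and -0.771 for miR-200a-3p. The rho values in the same order were 0.932, 0.893, 0.83, 0.421, -0.918 and -0.581, and every one of these had a permutation p of 0.0192 or less and an adjusted p over the 7 members of 0.0224 or less. For miR-141-5p the r was 0.116 and the rho 0.248 (permutation p 0.538 and 0.181). Without the 2 arrays farthest on the component, smoke arrays 2 and 3 of 4 weeks, the r was 0.914 for miR-200c-3p, -0.901 for miR-141-3p, 0.906 for miR-200b-3p, 0.836 for miR-200b-5p, -0.589 for miR-200a-3p, 0.298 for miR-141-5p and 0.272 for miR-429-3p.

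**Figure D5:**
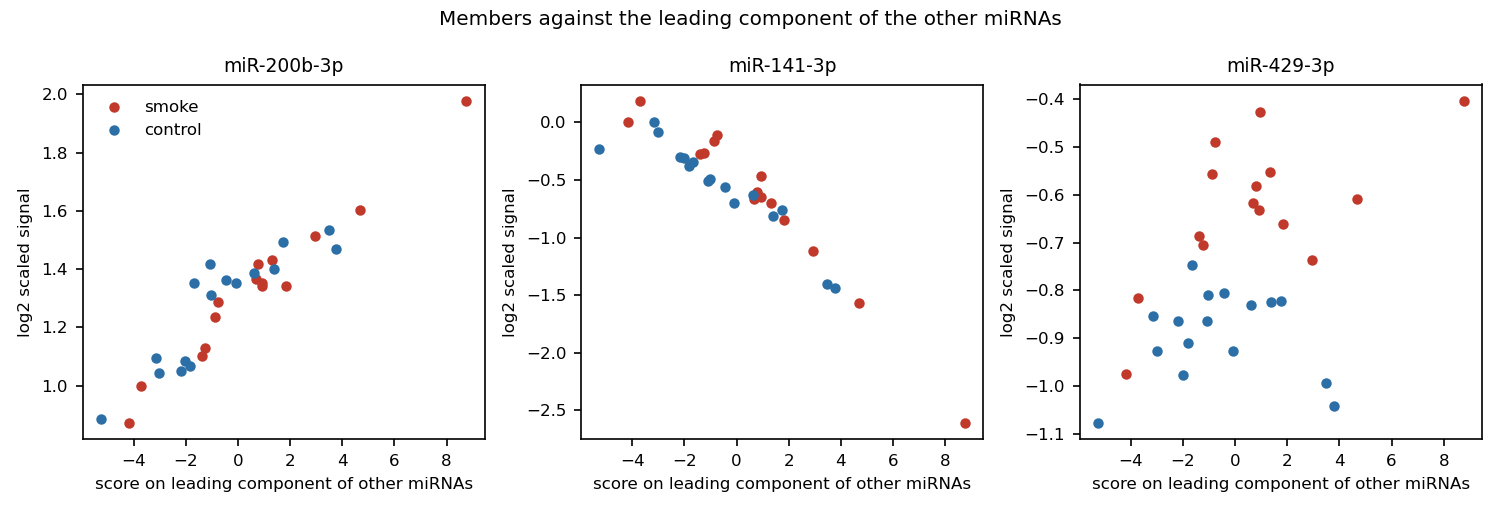
Log2 scaled signal of miR-200b-3p, miR-141-3p and miR-429-3p (y axis) against each array's score on the leading component of the other miRNAs (x axis, without unit), smoke in red and control in blue. miR-200b-3p rises and miR-141-3p falls along the score, with r of 0.941 and -0.941, while most miR-429-3p smoke arrays lie above the control arrays at like scores.

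With the component score as a covariate, a setting chosen after the data were seen, the 4 weeks differences were -0.01 for miR-200b-3p, 0.06 for miR-200c-3p, -0.07 for miR-200b-5p, 0.07 for miR-200a-3p and 0.20 for miR-141-3p, and of the members only miR-429-3p passed at 4 weeks (0.29, limma adjusted p 0.00874), where 43 of all 272 miRNAs did. In the averaged comparison of that setting 151 of all 272 miRNAs passed, and 5 of 7 members did, with miR-429-3p (0.25, limma adjusted p 5.22e-07), miR-141-5p (0.27, limma adjusted p 3.22e-06), miR-200c-3p (0.10, limma adjusted p 0.0027) and miR-141-3p (0.19, limma adjusted p 0.0056) higher and miR-200b-5p lower (-0.16, limma adjusted p 0.000339). The GC content of the mature miRNA had an r of 0.234 across 158 miRNAs with the miRNAs' own r to the component, which is across miRNAs that are not independent replicates. What the component stands for was not tested.

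The miRNAs most like the mean of the family over the 31 arrays, among the 200 others detected on every array, were miR-185-5p with an r of 0.76, miR-500-3p with 0.76, miR-7a-5p with 0.754, miR-532-5p with 0.719 and miR-146a-5p with 0.716. Within groups these r values were lower, between 0.368 and 0.545. The least like were miR-299b-5p with an r of -0.488, let-7a-1-3p with -0.435 and miR-193b-3p with -0.423. All points share the arrays and their scaling. Taken alone and named after their values were seen, miR-429-3p was most like miR-532-5p (r 0.909), miR-31-5p (0.893) and miR-146b-5p (0.864), and miR-141-5p was most like miR-21-5p (0.842).

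The other epithelial miRNAs and the markers of other cell types give the setting. Of 6 other epithelial miRNAs, all tested and 4 detected on every array, 2 passed as higher in the averaged comparison and none as lower, with a list median of 0.09. These were miR-183-5p (0.39 ± 0.06, limma adjusted p 6.66e-06) and miR-182-5p (0.35 ± 0.06, limma adjusted p 0.000172), products of a cluster known from sensory epithelia. At 4 weeks 2 of the 6 passed as higher and 2 as lower, miR-203-3p (-0.72, limma adjusted p 0.0259) and miR-205-5p (-1.40, limma adjusted p 0.0261), which are known from squamous epithelium. miR-183-5p was higher at 4 and 6 weeks, by 0.65 and 0.40 (limma adjusted p 0.000113 and 0.0202), and did not pass at 8 weeks (limma adjusted p 0.388) or 12 weeks (limma adjusted p 0.0786). The summed scaled signal of the 6 ran from 0.519 to 0.559 in smoke-exposed lungs against 0.473 to 0.50 in control lungs at 6 weeks, and from 0.524 to 0.585 against 0.488 to 0.516 at 12 weeks. At 4 and 8 weeks those sums overlapped.

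Among the 5 tested of 7 multiciliated cell miRNAs, 2 passed as lower and none as higher at 4 weeks, with differences down to -0.81. In the averaged comparison 1 of them passed as higher and none as lower, with a list median of 0.00. This was miR-449a-5p (0.67 ± 0.09, limma adjusted p 4.93e-06), which promotes the formation of multiple cilia. Of 7 mesenchymal and smooth muscle miRNAs tested, miR-199a-3p was higher (0.13 ± 0.04, limma adjusted p 0.0245) and miR-199b-5p lower (-0.37 ± 0.07, limma adjusted p 0.000229), with a list median of -0.05. Of 4 leukocyte miRNAs 2 passed as lower, the blood cell miRNAs miR-142-3p (-0.65 ± 0.17, limma adjusted p 0.00551) and miR-142-5p (-0.65 ± 0.13, limma adjusted p 0.000377). The myeloid miRNA miR-223-3p of that list was at 0.34 ± 0.14 averaged (limma adjusted p 0.0737) and passed as higher at 4 weeks (0.76, limma adjusted p 0.0379). Of 2 endothelial miRNAs 1 passed as lower, miR-126-3p (-0.13 ± 0.04, limma adjusted p 0.00737). No erythroid, striated muscle or liver miRNA passed in that comparison, where 12.1% of all miRNAs passed as lower.

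Summed signals of some of these lists are given here, and their relation to the members was not tested. The summed signal of the leukocyte list ran from 4.98 to 8.32 in smoke-exposed lungs against 8.92 to 9.25 in control lungs at 4 weeks, and from 6.31 to 6.70 against 6.97 to 8.97 at 6 weeks. At 12 weeks it ran from 5.96 to 7.51 against 8.67 to 10.2, and at 8 weeks the groups overlapped. The striated muscle sum reached 6.79 on a 4 weeks control array and 7.18 on an 8 weeks smoke array, and was 2.83 or less on every other array but control array 1 of 4 weeks. The liver miRNA miR-122-5p was at the floor in every control group and reached a scaled signal of 2.97 on a 12 weeks smoke array. Without the 3 arrays highest in muscle miRNAs the averaged difference of miR-429-3p was 0.28 and that of miR-141-5p 0.28. Without smoke array 3 of 12 weeks they were 0.27 and 0.27. The part of other cell types, leukocytes among them, in the members' differences was not tested.

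The opposite strands that are not members were looked up as well. miR-200a-5p was detected on 25 of 31 arrays by its brightest probe, and its averaged difference was 0.05 ± 0.06 (limma adjusted p 0.519). miR-200c-5p was well above background on 0 of 31 arrays with any of its 4 probes. miR-429-5p was not analysed here.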

How the data were processed

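The titles of the samples gave exposure, duration and replicate number. Per the file headers, the spot intensity comes from Feature Extraction 10.7.3.1, background-subtracted and detrended, with no normalization between arrays. The authors' deposited series table of log2 values served as an alternative, and the sources used here do not say how those were normalized.

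Control and outlier spots (297 to 655 outliers per array) were dropped and spots of the same probe averaged. Detection on an array needed 50% of a probe's spots well above background. Intensities were scaled to the 75th percentile of the 385 probes that all 31 arrays detected, raised to a floor of -6.74 on the log2 scale where lower, and logged. The brightest probe was used for each miRNA, and the 272 miRNAs detected on at least 75% of the arrays in some group were tested.

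limma 3.58.1 in R 4.3.3 fitted the 8 group means together, so that all groups share the spread (23 residual degrees of freedom), and the averaged comparison weights durations equally. The code was tested on simulated data. Replicate numbers were not used as pairs, since 7 of 15 same-numbered smoke and control arrays had deviations that correlated above 0.1. The number of arrays limits the precision.

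Named miRNAs are the 7 members, marker miRNAs that passed in the averaged comparison, and the 5 most and 3 least like the family mean. Named outside that rule, after their values were seen, are miR-31-5p, miR-146b-5p, miR-21-5p, miR-122-5p, miR-203-3p, miR-205-5p, miR-223-3p, miR-674-3p, miR-652-3p, miR-324-5p, miR-34b-5p and the opposite strands. The members, lists and rules were chosen with earlier results of these data known. Alternatives changed the scaling, background correction, probe summary, filter, floor, block or arrays used. Normexp, with an offset of 50, took median spot signals, where mean signals had been planned.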

Additional observations from a re-analysis of the deposited data

Results flagged for a closer look

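In the 12 weeks control group, control array 1 had a miR-429-3p log2 scaled signal of -0.927 where the nearest of the other 3 arrays was at -0.831, a gap of 0.924 of the group's range. It was the only such array among 49 groups of 4 arrays checked over the members, and chance alone sets apart about 1 in 20 such groups.

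The smoke effect on miR-429-3p differed between the durations in the moderated F test (limma adjusted p 0.041), with differences of 0.37, 0.37, 0.01 and 0.32 at 4, 6, 8 and 12 weeks.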

How the results depend on the processing

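The members' counts and values were recomputed under 17 other settings and with each of the 31 arrays left out. Of 706 single values under the settings, 569 kept their direction and side of the threshold, 74 lost a call, 18 gained one and 45 changed sign. With an array left out, 1245 of 1333 kept both, 52 lost a call, 14 gained one and 22 changed sign. Where no cause is named below, the cause was not tested. Dim probes limit the 5p members most: with the floor 4 times higher, most of their differences could not be given.

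The 5 members that passed at 4 weeks became 4 with summed signal or the mean of all probes, and 4 in the deposited table, in that table with miR-141-3p as lower. They became 3 with the percentile of all probes, quantile normalization, the higher floor, the slide as a block or without smoke array 3 of 12 weeks. They became 2 with normexp or no detection filter, 1 with only that duration's arrays, without smoke arrays 2 and 3 of 4 weeks, without the 3 arrays highest in muscle miRNAs or with the component covariate, and 0 without scaling. The 2 at 6 weeks became 3 with the component covariate, where 82 of all 272 miRNAs passed, 1 with the higher floor or the deposited table, and 0 with the percentile of all probes, no scaling or normexp. The 0 at 8 weeks became 6 without scaling, all lower, 2 with the component covariate and 1 with summed signal, where 203, 103 and 79 of all 272 miRNAs passed. The 2 with the covariate were miR-200b-3p (-0.20) and miR-200b-5p (-0.30), both lower. All counts in this paragraph take both directions. The 2 at 12 weeks became 4 with only that duration's arrays and 3 with the component covariate, where 94 and 103 of all 272 miRNAs passed. The member added by the covariate was miR-200b-5p, as lower (-0.21). The 2 at 12 weeks became 1 with the higher floor, and 0 with the percentile of all probes, no scaling, normexp, summed signal or the deposited table. The 2 in the averaged comparison became 5 with the component covariate, miR-200b-5p among them as lower, where 151 of all 272 miRNAs passed. They became 3 with the percentile of all probes or quantile normalization, where 79 and 100 of all passed. They became 1 with the higher floor or the deposited table, and 0 with no scaling or normexp.

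The 1 member whose smoke effect differed between durations became 4 with no scaling or summed signal, 3 with the component covariate, and 0 with the percentile of all probes, quantile normalization, normexp, no detection filter, only miRNAs detected on every array, the deposited table or without the 3 muscle arrays. Among control lungs the 0 became 4 with no scaling, 3 with the percentile of all probes or summed signal, 2 without smoke arrays 2 and 3 of 4 weeks and 1 with the component covariate. Among smoke-exposed lungs the 0 became 2 with no detection filter and 3 with the component covariate.

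Signs turned as follows. With the percentile of all probes, miR-200b-3p was 0.052 at 12 weeks and miR-200a-3p 0.017 averaged. With quantile normalization, miR-141-5p was -0.035 at 4 weeks, miR-200b-3p 0.042 at 12 weeks and miR-200a-3p 0.028 averaged. Without scaling, the 8 weeks values were -0.81 for miR-429-3p, -0.71 for miR-200c-3p, -0.79 for miR-141-3p and -0.72 for miR-141-5p, those at 12 weeks 0.23 for miR-200b-3p and 0.020 for miR-200b-5p, and those averaged -0.086 for miR-200b-3p and -0.020 for miR-199a-3p. With normexp, the 4 weeks values were -0.91 for miR-200b-5p and -0.97 for miR-141-5p. In that setting miR-200b-5p was 0.35 at 8 weeks, miR-141-5p -0.0060 at 12 weeks and -0.091 averaged, miR-200a-3p 0.020 averaged and miR-182-5p -0.10 averaged. With summed signal, miR-200b-5p was 0.048 at 6 weeks, and at 8 weeks miR-429-3p was -0.11, miR-200c-3p -0.029, miR-141-3p -0.091 and miR-141-5p -0.11. In that setting miR-200c-3p was -0.048 at 12 weeks and miR-200b-3p -0.00209 averaged. Averaged, miR-200b-5p was 0.0070 with the mean of all probes and 0.010 with the higher floor. In the deposited table miR-141-5p was -0.046 at 4 weeks and -0.021 at 8 weeks.

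Without smoke arrays 2 and 3 of 4 weeks, miR-200a-3p was 0.035 at 4 weeks, and the averaged values were 0.074 for miR-200a-3p, -0.023 for miR-200b-3p and 0.15 for miR-141-3p. Without the 3 muscle arrays miR-141-3p was -0.11 at 8 weeks. Without smoke array 3 of 12 weeks, miR-200c-3p was -0.010 at 12 weeks and miR-200a-3p 0.0062 averaged. With the component covariate, the 4 weeks values were 0.073 for miR-200a-3p, -0.010 for miR-200b-3p, -0.069 for miR-200b-5p and 0.20 for miR-141-3p, and the averaged ones 0.078 for miR-200a-3p, -0.042 for miR-200b-3p and 0.19 for miR-141-3p.

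With a single array left out, the count of members that passed in either direction ran from 1 to 6 at 4 weeks, 2 to 2 at 6 and 12 weeks, 0 to 0 at 8 weeks and 2 to 3 averaged. It ran from 0 to 4 for an effect that differed between durations, 0 to 0 among control lungs and 0 to 2 among smoke-exposed lungs. The ranges that crossed 0 were -0.027 to 0.45 at 6 weeks, -0.18 to 0.26 at 8 weeks and -0.15 to 0.042 averaged for miR-141-3p, -0.032 to 0.034 averaged for miR-200a-3p, and -0.14 to 0.073 at 6 weeks and -0.094 to 0.0035 averaged for miR-200b-5p. The others were -0.0033 to 0.21 at 8 weeks and -0.010 to 0.073 at 12 weeks for miR-200c-3p and -0.036 to 0.069 at 8 weeks for miR-429-3p. The averaged difference of miR-429-3p ran from 0.25 to 0.28, with a limma adjusted p of at most 6.98e-06, and that of miR-141-5p from 0.25 to 0.28.

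With the replicate number as a block, 3 members passed at 4 weeks, and no other count of members changed. Same-numbered smoke and control arrays shared a slide at every duration but 12 weeks. This is therefore nearly the same check as the slide as a block. A hint of pairing was weak, since 6 of 15 smoke arrays correlated best with the control array of their own number.

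Among all miRNAs tested, the number that passed ran over the settings from 4 to 104 at 4 weeks, 2 to 82 at 6 weeks, 3 to 203 at 8 weeks, 4 to 103 at 12 weeks and 12 to 151 averaged. The share of those that were higher was 70.2%, 95.5%, 33.3% and 53.8% at 4, 6, 8 and 12 weeks and 56% averaged. It was 83.3%, 75%, 46.5%, 67.9% and 63.3% in the same order with the percentile of all probes, and 61%, 60.9%, 26.1%, 51.2% and 47% with quantile normalization. Without scaling it was 100%, 100%, 0.493%, 100% and 27.6%, and it was 58.9%, 83.3%, 23.1%, 32.6% and 40.5% with the deposited values. The median over all miRNAs moved by over 0.1, from 0.17 at 4 weeks to 0.06 with the percentile of all probes or 0.07 with quantile normalization, and from -0.08 at 12 weeks to 0.04 with the percentile of all probes. Without scaling it was -0.86 at 8 weeks, 0.20 at 12 weeks and -0.15 averaged. With normexp it was -0.75 at 4 weeks, 0.21 at 8 weeks, -0.18 at 12 weeks and -0.15 averaged, and with summed signal -0.22 at 8 weeks, where 12.7% of those that passed were higher. At 4 weeks it was 0.03 without smoke arrays 2 and 3 of that group, -0.03 with the component covariate, and 0 with no detection filter or the higher floor.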
